A study of Homo sapiens with 4 samples.

Results

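The AP-1 transcription factor genes were examined as a set of 9 named members: FOS, FOSB, FOSL1, FOSL2, JUN, JUNB, JUND, ATF3 and BATF3. They were taken by symbol from a table of read counts for 58676 Ensembl genes, and all 9 were found and passed the low-count filter that left 17524 genes. The counts came from U2OS, an established human osteosarcoma cell line grown in medium with serum. Control cells received a single-domain antibody (sdAb) named sdAb con, and cells labelled M11 received an sdAb directed at MN1, a transcriptional coregulator, with 2 libraries per group. An sdAb is an antibody fragment reduced to its variable domain. The labels give no dose, duration or delivery route, and do not say whether replicates were separate cultures, so each p-value covers only the spread among these libraries, possibly technical.

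AP-1 is a dimer of proteins that share a basic region, which contacts DNA, and a leucine zipper, which joins the partners. JUN proteins pair with each other and with FOS proteins, whereas FOS proteins do not form stable dimers with each other and need a partner such as JUN. The dimers bind the short palindrome TGANTCA (the TPA response element) and, mainly with ATF partners, TGACGTCA (the cAMP response element). FOS, FOSB, JUN and JUNB are immediate early genes, transcribed within minutes of serum, growth factors or stress, while FOSL1 and FOSL2 usually follow later. In bone, FOS proteins act in osteoblasts and osteoclasts, and forced expression of Fos gives osteosarcoma in mice.

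Under anti-MN1 sdAb, 5 of the 9 members rose, 1 fell and 3 did not pass the test. FOSL1 had the largest change of the 9, at 1.96-fold, and JUNB, ATF3, JUN and JUND rose 1.36-fold, 1.30-fold, 1.25-fold and 1.17-fold. FOSL2 fell by 0.16 on the log2 scale. FOS, FOSB and BATF3 had log2 fold changes of 0.23, 0.44 and 0.21 that did not pass. Calls rest on the quasi-likelihood test of edgeR at 0.05 after Benjamini-Hochberg adjustment over all genes tested. By the same rule 23.7% of all tested genes were called higher and 21.6% lower. Among the 10143 genes averaging 10 CPM or more (CPM is the count scaled to library size), 35.9% were called higher and 20.9% lower. The median log2 fold change was 0.32 over the 9 members, -0.00 over all tested genes and 0.07 over those at 10 CPM or more. In 7 members both anti-MN1 libraries lay above both control libraries, which held for 35.3% of tested genes. In 1 member they lay below, which held for 35.4%. Among the 10143 genes at 10 CPM or more, they lay above in 4854 and below in 3038. Under upper-quartile scaling 17.5% of all genes were called higher and 28.4% lower (3058 and 4985 genes, against 4153 and 3789), and 4 members rose and 1 fell.

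Library totals ran from 15740268 to 16816893 counts, and levels are CPM with TMM scaling, a trimmed-mean correction of library size, with SD over the 2 libraries of a group. Of 7 osteoblast lineage markers 5 were tested and 3 of these fell (60.0%), COL1A1 and RUNX2 among them. Called lower were 21.6% of all tested genes and 20.9% of those at 10 CPM or more. ALPL and SPP1 were measured without a call. IBSP had 0 counts in every library, which allows up to 0.178 to 0.191 CPM, and BGLAP had 0.186 and 0.058 CPM under control sdAb and 0.384 and 0 CPM under anti-MN1 sdAb. The summed level of these markers was 557 and 542 CPM under control sdAb and 201 and 201 CPM under anti-MN1 sdAb. COL1A1 alone made up most of this sum, at 501 and 484 CPM against 159 and 165 CPM, so the sum mainly follows that gene. RUNX2 was at 34.9 and 33.8 CPM against 21.1 and 17.2 CPM. ALPL and SPP1 were at 0.70 and 0.15 on the log2 scale, above 0. Of 10 markers of epithelial, endothelial and blood cells, 4 were measured. The epithelial cadherin gene CDH1 and the endothelial gene VWF were called lower, at -1.62 and -1.18 on the log2 scale (adjusted p = 0.0181 and 0.0477 in edgeR), and lost that call in 5 and 8 of the 13 alternatives, DESeq2 included. CDH1 stood at -0.80 without control replicate 2. CD3E and HBB had 0 counts in every library, and the sum over all 10 was 7.26 and 9.26 CPM under control sdAb and 7.16 and 5.88 CPM under anti-MN1 sdAb. The part of these markers in the AP-1 values was not tested. In bulk RNA, fewer cells that express a gene and less RNA per cell cannot be told apart.

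The members differ in gene structure and place (GENCODE 29, GRCh38). The longest annotated transcript of JUN, JUNB and JUND has 1 exon, whereas that of FOS, FOSB, FOSL1 and FOSL2 has 4. JUNB (ENSG00000171223, chr19:12791496-12793315, plus strand) and JUND (ENSG00000130522, chr19:18279760-18281622, minus strand) lie on the same chromosome as FOSB (ENSG00000125740, chr19:45467995-45475179, plus strand). JUN (ENSG00000177606, chr1:58780788-58784327, minus strand), ATF3 (ENSG00000162772, chr1:212565334-212620777, plus strand) and BATF3 (ENSG00000123685, chr1:212686418-212699985, minus strand) lie on chromosome 1. FOS (ENSG00000170345) is at chr14:75278774-75282230 on the plus strand. FOSL1 (ENSG00000175592) is at chr11:65892049-65900573 on the minus strand. FOSL2 (ENSG00000075426) is at chr2:28392448-28417312 on the plus strand. JUNB was the only member with exonic overlap, since 14.2% of its exonic bases are also covered by HOOK2 on the other strand. Of its 50-base windows 11.9% occur in other genes, so part of its reads may be shared. For FOSL1 this share was 3.64%, and for the other 7 it was 0%.

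Promoter windows from RefSeq (GRCh38.p14), the 250 bases before the RefSeq transcription start, were available for 7 members, ATF3 having 2. GENCODE places some of these starts further upstream. By the GENCODE coordinates above, the windows of JUN, FOSL2 and the downstream ATF3 start lie wholly inside the annotated gene. Those of FOS, FOSB and the upstream ATF3 start overlap it in part. For JUN and FOSL2 the sequence before the GENCODE start was therefore not searched. JUN, JUND and the upstream ATF3 start are shown because a motif match was found there, and FOSL2 because it was the member that fell. Capitals mark matches to TGANTCA, TGACGTCA or the looser TGANNTCA, which includes TGACGTCA, on either strand.
JUN (chr1:58784048-58784297, minus strand): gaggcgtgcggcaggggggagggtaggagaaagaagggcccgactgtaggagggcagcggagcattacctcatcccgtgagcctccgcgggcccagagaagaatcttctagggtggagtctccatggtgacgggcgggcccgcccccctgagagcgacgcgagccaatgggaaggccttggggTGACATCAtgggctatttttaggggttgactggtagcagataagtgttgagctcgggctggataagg
JUND (chr19:18281623-18281872, minus strand): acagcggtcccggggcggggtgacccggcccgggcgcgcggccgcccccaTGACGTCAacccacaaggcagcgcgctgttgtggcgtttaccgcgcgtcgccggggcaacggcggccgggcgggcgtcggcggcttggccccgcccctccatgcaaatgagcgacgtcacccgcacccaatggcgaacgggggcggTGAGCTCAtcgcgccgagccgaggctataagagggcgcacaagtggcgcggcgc
ATF3, upstream start (chr1:212565157-212565406, plus strand): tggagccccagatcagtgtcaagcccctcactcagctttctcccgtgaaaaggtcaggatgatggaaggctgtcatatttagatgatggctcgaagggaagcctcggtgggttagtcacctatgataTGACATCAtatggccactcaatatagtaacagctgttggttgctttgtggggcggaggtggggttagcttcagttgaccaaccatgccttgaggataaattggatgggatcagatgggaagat
FOSL2 (chr2:28392608-28392857, plus strand): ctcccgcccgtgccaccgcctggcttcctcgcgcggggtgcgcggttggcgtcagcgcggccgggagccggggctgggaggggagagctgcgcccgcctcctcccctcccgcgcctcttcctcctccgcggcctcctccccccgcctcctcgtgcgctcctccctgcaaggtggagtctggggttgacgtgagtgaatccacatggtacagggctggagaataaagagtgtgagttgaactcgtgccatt
In JUN and in ATF3 the only match was TGACATCA, from -67 to -60 and from -123 to -116 relative to the RefSeq start. It fits only the looser TGANNTCA, and in JUN it lies inside the gene as annotated by GENCODE. No member's window held TGANTCA. JUND held TGACGTCA from -200 to -193 and TGAGCTCA from -54 to -47. No window of FOS, FOSB, FOSL2 or JUNB, nor the downstream ATF3 window, held any of the 3 motifs or the CArG box, the binding site of serum response factor. Sequence beyond these 250 bases was not searched, so these promoters may hold such sites further upstream. Of 35116 promoters of this length, 10.1% held TGANNTCA, 6.57% TGANTCA, 1.65% TGACGTCA and 1.16% a CArG box. GC content was 62.0% in JUN, 74.8% in JUND, 69.6% in FOSL2 and 49.2% in the upstream ATF3 window, against a median of 58.0% over all promoters. These matches describe letters only.

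FOSL1 encodes Fra-1, a FOS protein that lacks the C-terminal activation domain of FOS. It stood at 34.2 and 37.9 CPM under control sdAb and at 72.4 and 69.3 CPM under anti-MN1 sdAb. The groups were far apart, and the libraries within each were close. The log2 fold change was 0.97 ± 0.07 (SE; edgeR adjusted p = 5.32e-29). A called rise of at least 1.9-fold was seen in 2.17% of tested genes. Of 11017 other protein-coding genes averaging 5 CPM or more, the 3 with the nearest centred log2 CPM profile to FOSL1 over the 4 libraries were TPRA1, GCLM and CSF1. Their Euclidean distances were 0.0328, 0.0543 and 0.0584, and their fold changes 1.96, 1.95 and 1.89. With 4 libraries in 2 groups, this likeness is mostly a similar fold change.

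FOSL2 encodes Fra-2, the closest relative of Fra-1. Its level was 267 and 251 CPM under control sdAb and 231 and 232 CPM under anti-MN1 sdAb, so both treated libraries lay below both controls. The change was small, with a log2 fold change of -0.16 ± 0.04 (SE; edgeR adjusted p = 0.000143). The ratio of FOSL1 to FOSL2 counts within a library needs no scaling between libraries. It was 0.128 and 0.151 under control sdAb and 0.314 and 0.299 under anti-MN1 sdAb. The Fra genes FOSL1 and FOSL2 thus moved in opposite directions, and their ratio was higher in both treated libraries. The ratio of FOSL1 to FOS counts was 0.314 and 0.257 under control sdAb and 0.471 and 0.471 under anti-MN1 sdAb.

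FOS, the founding immediate early member, was at 109 and 147 CPM under control sdAb and at 154 and 147 CPM under anti-MN1 sdAb. The second control library lay within the treated range, so the groups overlapped. The log2 fold change of 0.23 ± 0.20 (SE) did not pass (adjusted p = 0.482 in edgeR). FOSB, which encodes the FosB protein and a shorter splice form, was at 15.1 and 25.4 CPM under control sdAb and at 27.3 and 28.0 CPM under anti-MN1 sdAb. Its groups did not overlap, but the controls were far from each other. Its log2 fold change was 0.44 ± 0.27 (SE; edgeR adjusted p = 0.275).

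**Figure D1:**
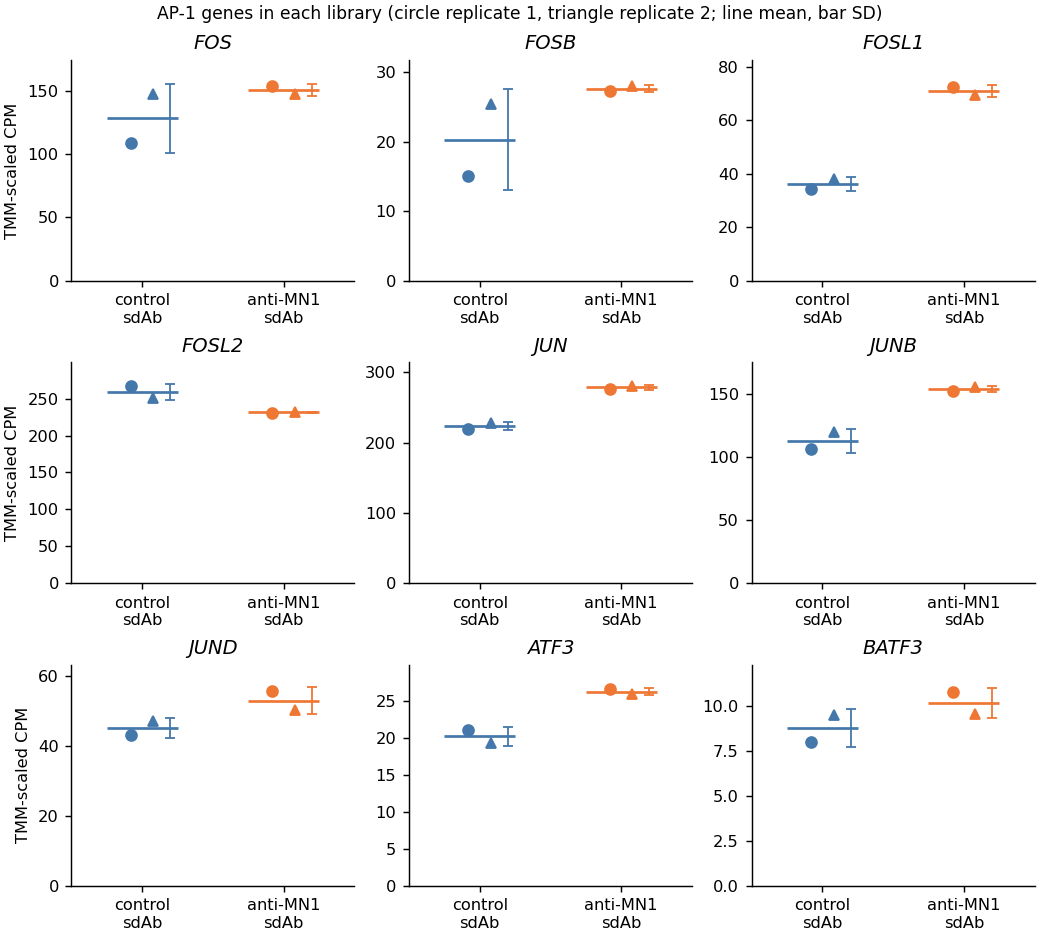
TMM-scaled CPM (y axis, from 0) of each AP-1 gene in the 2 control and 2 anti-MN1 libraries; points are libraries, lines group means and bars SD. FOSL1 is higher in both anti-MN1 libraries (34.2 and 37.9 against 72.4 and 69.3 CPM), FOSL2 is lower under anti-MN1 sdAb, and the control libraries of FOS and FOSB stand apart from each other.

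FOS and FOSB differed between the control replicates more than the other 7 members did. The log2 ratio of control replicate 2 to control replicate 1 was 0.44 for FOS and 0.75 for FOSB. Of the 10143 genes averaging 10 CPM or more, 99.4% had a smaller gap between the control libraries than FOS, and 5 had one as large as FOSB or larger, itself included. The median gap was 0.0667. Between the anti-MN1 replicates the same ratios were -0.06 for FOS and 0.03 for FOSB. FOSL1, JUNB, JUND and BATF3 were also higher in control replicate 2, by 0.15, 0.17, 0.13 and 0.25, and JUN by 0.05, while ATF3 and FOSL2 were lower, at -0.13 and -0.09. Without control replicate 1 the log2 fold change was 0.03 for FOS and 0.12 for FOSB (adjusted p = 0.653 and 0.423 in edgeR). Without control replicate 2 it was 0.47 for FOS and 0.87 for FOSB (adjusted p = 2.46e-12 and 2.53e-08). Both genes also passed with limma-voom (adjusted p = 0.00761 and 0.00445) and in edgeR without robust estimation of the spread (adjusted p = 0.00923 and 0.0074), and neither passed with DESeq2. Called higher among all genes were 23.2% with limma-voom, 23.2% without robust estimation, 17.0% with DESeq2, 18.4% without control replicate 1 and 19.6% without control replicate 2. FOSB passed further with no low-count filter, with the 20 most abundant genes left out of library sizes and with the replicate number as a block (log2 fold changes 0.45, 0.44 and 0.47, adjusted p = 9.62e-05, 0.000375 and 3.66e-05 in edgeR), where FOS did not (adjusted p = 0.616, 0.528 and 0.37). FOS was thus called in 3 and FOSB in 6 of the 13 alternatives.

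**Figure D2:**
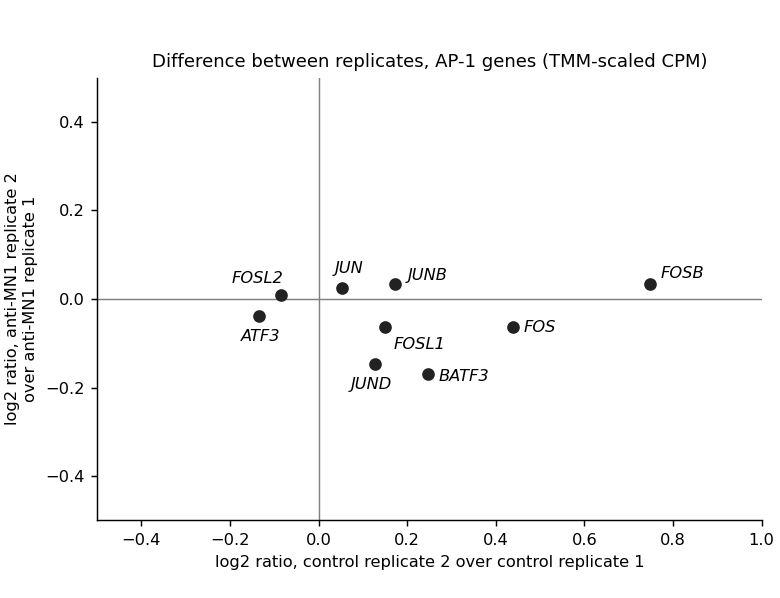
Log2 ratio of replicate 2 to replicate 1 under control sdAb (x axis) and under anti-MN1 sdAb (y axis) for the 9 AP-1 genes, from TMM-scaled CPM. FOSB at 0.75 and FOS at 0.44 lie far to the right, while their anti-MN1 ratios are near 0.

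JUN, the gene of c-Jun and the main target of the JNK kinases in this family, was at 219 and 227 CPM under control sdAb and 276 and 281 CPM under anti-MN1 sdAb. Its groups were well separated, with a log2 fold change of 0.32 ± 0.04 (SE; edgeR adjusted p = 9.98e-14). JUNB encodes a JUN protein that activates transcription more weakly and can oppose c-Jun. It was at 106 and 119 CPM under control sdAb and 152 and 155 CPM under anti-MN1 sdAb. This rise, at 0.44 ± 0.05 (SE) on the log2 scale, was the second largest of the called members (adjusted p = 2.94e-16 in edgeR). The ratio of JUNB to JUN counts was 0.483 and 0.525 under control sdAb and 0.549 and 0.553 under anti-MN1 sdAb, so it was higher in both treated libraries.

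JUND, the JUN gene with the steadiest expression in many resting cells, was at 43.1 and 47.1 CPM under control sdAb and 55.6 and 50.2 CPM under anti-MN1 sdAb. The groups did not overlap, but the gap of 3.06 CPM between their nearest libraries was less than the 5.39 CPM between the anti-MN1 libraries. Its log2 fold change was 0.23 ± 0.07 (SE; edgeR adjusted p = 0.00595). The call was lost without control replicate 1 (adjusted p = 0.157), without anti-MN1 replicate 1 (adjusted p = 0.161), with upper-quartile factors (adjusted p = 0.0997), with library totals only (adjusted p = 0.0875) and with DESeq2 (adjusted p = 0.087). The ratio of JUND to JUN counts overlapped between groups, at 0.196 and 0.207 under control sdAb and 0.201 and 0.179 under anti-MN1 sdAb.

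ATF3, a stress-induced member that can repress as a homodimer, was at 21.2 and 19.3 CPM under control sdAb and 26.7 and 25.97 CPM under anti-MN1 sdAb. Its groups did not overlap, and its log2 fold change was 0.38 ± 0.10 (SE; edgeR adjusted p = 0.00087). BATF3 encodes a small bZIP protein without an activation domain that pairs with JUN proteins and is best known from dendritic cells. It had the fewest reads of the 9, with 129 and 164 counts under control sdAb and 168 and 148 under anti-MN1 sdAb, or 8.75 ± 1.05 and 10.2 ± 0.838 CPM (SD, n = 2 per group). In CPM its groups did not overlap. The nearest libraries of the groups were 0.0649 CPM apart, and its log2 fold change of 0.21 ± 0.16 (SE) did not pass (adjusted p = 0.275 in edgeR).

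**Figure D3:**
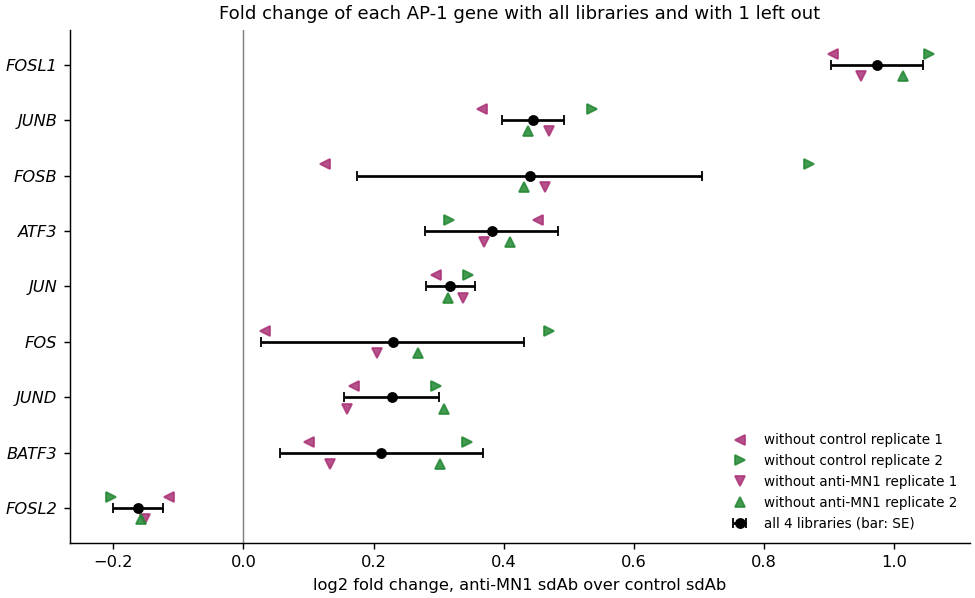
Log2 fold change of each AP-1 gene (x axis) with all 4 libraries (black, bar SE) and with 1 library left out (triangles). FOSL1 stays between 0.91 and 1.05 and FOSL2 below 0, whereas FOS and FOSB range from 0.03 to 0.47 and from 0.12 to 0.87 with the control library left out.

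Levels were compared between members per kilobase of exonic length. Under control sdAb the order of mean CPM per kilobase was JUN (63.1 ± 1.60), JUNB (61.9 ± 5.21), FOS (39.6 ± 8.44), FOSL2 (36.2 ± 1.53), JUND (24.2 ± 1.52), FOSL1 (19.1 ± 1.40), ATF3 (5.00 ± 0.329), FOSB (3.65 ± 1.31) and BATF3 (3.23 ± 0.389) (SD, n = 2). JUN and JUNB, FOS and FOSL2, and FOSB and BATF3 overlapped in their libraries and were not told apart. Under anti-MN1 sdAb the order was JUNB (84.4 ± 1.41), JUN (78.7 ± 0.999), FOS (46.5 ± 1.42), FOSL1 (37.5 ± 1.16), FOSL2 (32.3 ± 0.131), JUND (28.4 ± 2.05), ATF3 (6.51 ± 0.123), FOSB (4.98 ± 0.0839) and BATF3 (3.74 ± 0.309), with no overlap between neighbours. FOSL1 thus stood below FOSL2 and JUND under control sdAb and above both under anti-MN1 sdAb. The order depends on annotated length, since all annotated exons are counted whether or not they are used in these cells.

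Within the FOS family, FOSL1 made up 19.8% and 19.1% of the summed CPM per kilobase under control sdAb and 31.2% and 30.7% under anti-MN1 sdAb. FOSL2 made up 40.6% and 33.3% under control sdAb and 26.2% and 27.1% under anti-MN1 sdAb. The share of FOS overlapped between groups, at 36.6% and 43.2% against 38.6% and 38.0%. In the JUN family JUN made up 43.2% and 41.4% under control sdAb and 40.8% and 41.4% under anti-MN1 sdAb. JUNB made up 40.6% and 42.3%, then 43.6% and 44.5%, and JUND 16.1% and 16.3%, then 15.6% and 14.1%. The summed JUN family level was 1.56 and 1.47 times that of the FOS family under control sdAb and 1.55 and 1.60 times under anti-MN1 sdAb, so the balance between families overlapped. No test was made of these shares, since 2 libraries against 2 cannot go below an exact permutation p of 0.33. The shares are of transcripts and do not show protein or dimers.

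**Figure D4:**
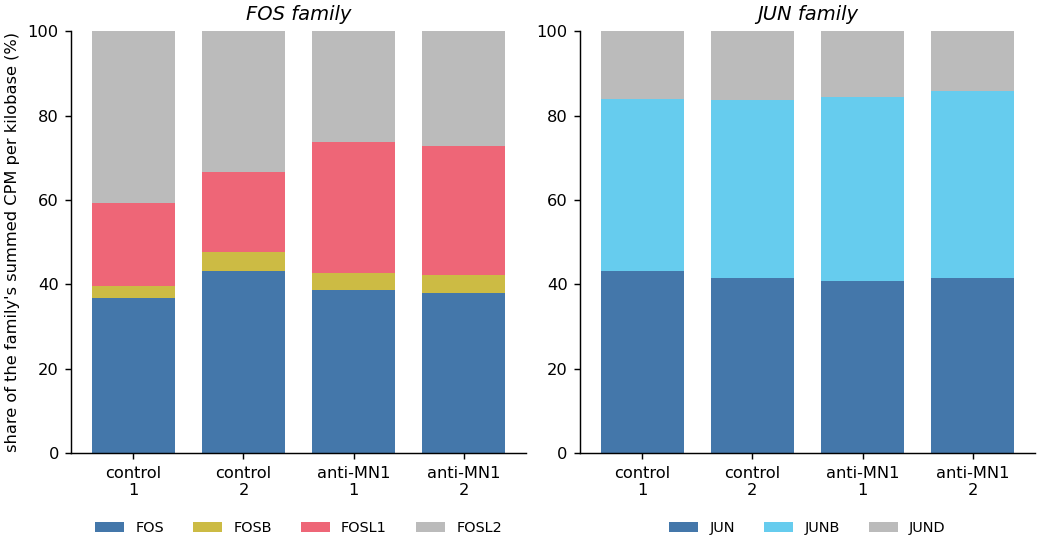
Share (%) of the summed CPM per kilobase of exonic length that each FOS family gene (left) and JUN family gene (right) made up in each library. The FOSL1 segment is larger in both anti-MN1 libraries (31.2% and 30.7%) than under control sdAb (19.8% and 19.1%). In the JUN family the JUNB segment is slightly larger under anti-MN1 sdAb (40.6% and 42.3% against 43.6% and 44.5%). The JUND segment is slightly smaller there (16.1% and 16.3% against 15.6% and 14.1%).

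Genes around AP-1 were read from 6 lists. Of 23 measured textbook AP-1 targets, 14 rose (60.9%), 2 fell (8.70%) and 7 did not pass, against the 23.7% higher and 21.6% lower of all tested genes, or 35.9% and 20.9% of those at 10 CPM or more. The median log2 fold change was 0.32, against -0.00 over all tested genes and 0.07 over those at 10 CPM or more. Those named were MMP3, the matrix protease stromelysin (20.2 and 22.3 CPM under control sdAb against 103 and 103 CPM, 4.83-fold), and CD44, a hyaluronan receptor (2.17-fold). MT2A, a metallothionein gene, rose 1.42-fold. Chosen after their values were seen, the 2 that fell were EZR, a membrane-cytoskeleton linker gene, and LIF, a cytokine gene, at -0.22 and -0.19 on the log2 scale. The call of LIF was lost in 5 of the 13 alternatives, with adjusted p from 0.0534 to 0.161. The collagenase gene MMP1, a classical TGANTCA target, was too low to test, at 0.124 and 0.405 CPM under control sdAb and 0.640 and 0.323 CPM under anti-MN1 sdAb. Also too low were MMP10 and IVL, and MMP9 and MMP13 were measured at 0.32 and -0.89 without passing. With upper-quartile factors and with library totals only, MMP13 was called lower (adjusted p = 0.0457 and 0.0487). The targets were therefore not uniform even among matrix proteases.

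Of 18 other immediate early genes measured, 11 rose (61.1%), 4 fell (22.2%) and 3 did not pass. Among all genes at 10 CPM or more 35.9% were called higher and 20.9% lower, so the share that fell was near theirs. The median log2 fold change was 0.28, against 0.07 over genes at 10 CPM or more. The matricellular genes CCN2 and CCN1 rose 1.66-fold and 1.33-fold, the growth regulator MYC 1.51-fold and the survival gene MCL1 1.42-fold. The members that fell, named after their values were seen, were EGR2, GADD45B, IER3 and BTG2, at -2.33, -0.78, -0.39 and -0.55. EGR2 was low, at 2.36 and 3.82 CPM under control sdAb and 0.640 and 0.581 CPM under anti-MN1 sdAb. Of the exonic bases of IER3, 26.5% are also covered by IER3-AS1 on the other strand. The 3 that did not pass, also named after their values were seen, were EGR1, NR4A1 and NR4A2, at -0.13, -0.04 and -0.05. Like FOS they are immediate early genes, but so are the 11 that rose. EGR1 was called lower in 4 of the 13 alternatives, at -0.26 without control replicate 1 (adjusted p = 0.00384), and all 3 were above 0 without control replicate 2. Between the control libraries EGR1 was at 78.6 and 96.7 CPM, higher in replicate 2 as FOS and FOSB were.

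Of 19 other bZIP genes that pair with or compete with AP-1 proteins, 7 rose (36.8%), 4 fell (21.1%) and 8 did not pass, shares near the 35.9% and 20.9% of genes at 10 CPM or more. MAF, a large Maf gene, had the largest fall among them, from 20.5 and 21.1 CPM to 4.41 and 1.81 CPM, a log2 fold change of -2.74 (-3.51 without anti-MN1 replicate 1). CEBPB, an inflammatory C/EBP gene, rose 1.83-fold, the small Maf gene MAFF 1.58-fold and CREM, a cAMP response gene, 1.59-fold. JDP2, a repressor that pairs with JUN, fell by 0.38 on the log2 scale and was named after its value was seen. BATF had 0 counts in every library. The number that fell was 2 without control replicate 1 or without anti-MN1 replicate 2, and 7 under upper-quartile scaling, in which 28.4% of all genes were called lower.

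Of 13 kinase genes upstream of AP-1, 4 rose (30.8%) and 6 fell (46.2%), against 35.9% and 20.9% of genes at 10 CPM or more. RPS6KA3, the RSK2 kinase gene, rose 1.35-fold and MAP2K1, the MEK1 gene, 1.31-fold, while MAPK3, the ERK1 gene, and RPS6KA2, the RSK3 gene, fell by 0.40 and 0.93 on the log2 scale. The call of RPS6KA2 was lost without control replicate 1 (adjusted p = 0.0506). The JNK genes MAPK8 and MAPK9, named after their values were seen, fell by 0.17 and 0.22. The call of MAPK8 was lost in 4 of the 13 alternatives (adjusted p from 0.0538 to 0.0771) and that of MAPK9 without anti-MN1 replicate 2 (adjusted p = 0.148). The number of kinase genes that fell was 3 with DESeq2. That method also called fewer genes of the whole table, 5309 against 7942, higher and lower together. Transcripts say nothing of kinase activity.

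Of 9 genes for factors that bind the FOS and JUN promoters, 4 rose (44.4%) and 2 fell (22.2%). Among genes at 10 CPM or more, 35.9% were called higher and 20.9% lower, so the share that fell was near theirs. ELK3, a ternary complex factor gene, rose 1.29-fold and MEF2D 1.22-fold, while the SRF coactivator genes MRTFB and MRTFA fell by 0.32 and 0.29 on the log2 scale. SRF itself, at 83.3 and 83.7 CPM under control sdAb and 97.0 and 89.3 CPM under anti-MN1 sdAb, rose 1.12-fold, a call lost in 5 of the 13 alternatives (adjusted p from 0.0824 to 0.298). Of 12 genes for AP-1 coactivators and turnover, 4 rose (33.3%, near the 35.9% of genes at 10 CPM or more) and 0 fell in edgeR's test, and 0 fell with DESeq2. At an unadjusted p under 0.05, 1 was lower. TRIB1, a pseudokinase gene of the COP1 ligase complex, rose 1.48-fold, COPS5, which encodes the JUN-binding coactivator JAB1, 1.20-fold, CUL4A 1.14-fold and COP1, a ubiquitin ligase gene for c-Jun, 1.19-fold. The call of COP1 was lost with upper-quartile factors, library totals only, DESeq2 and without control replicate 1 (adjusted p = 0.0946, 0.0835, 0.089 and 0.0695).

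**Figure D5:**
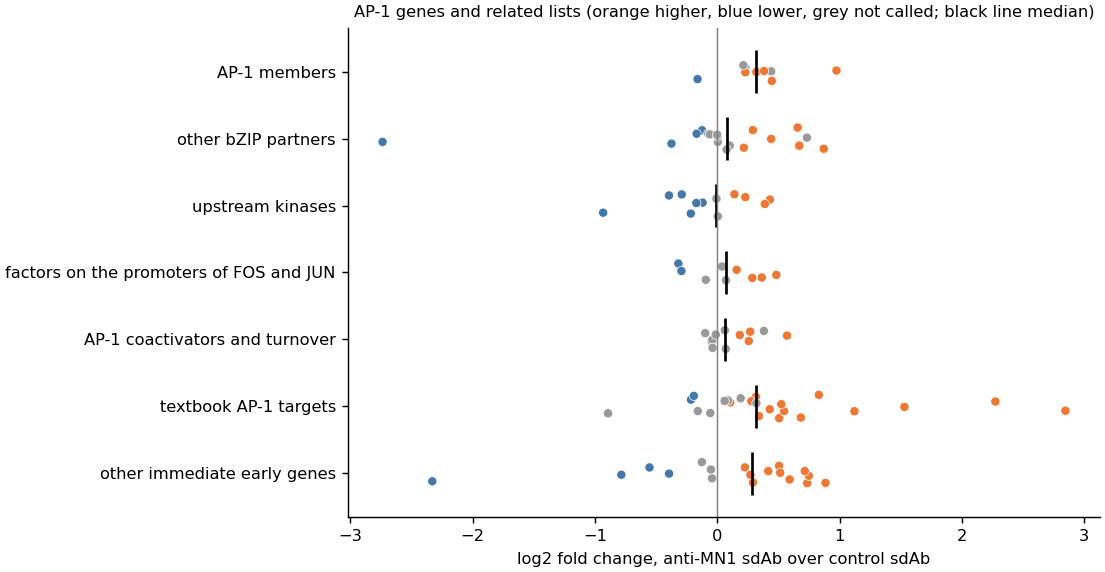
Log2 fold change (x axis) of the tested genes of the AP-1 set and of 6 related lists; orange points were called higher, blue lower and grey neither, and black lines are medians. The medians of the AP-1 members (0.32), the textbook targets (0.32) and the other immediate early genes (0.28) lie above 0, while the kinase list is centred at -0.01.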

How the data were processed

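Gene-level read counts from 4 U2OS libraries were used. The authors deposited the counts unnormalized, as the whole-number values show, 1 per Ensembl gene. Bowtie2, HTSeq and hg38 (GRCh38) are named, per the submitters' processing notes. Not given in the sources used here are versions, strand setting and annotation release. Columns were matched to libraries by the group's first letter and the replicate number in the titles. Symbols came from a separate list of gene names, with the GENCODE 29 name where that list had none. Lengths and coordinates came from GENCODE 29, in which all 58676 identifiers were found.

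The whole table was fitted in R 4.3.3 with edgeR 4.0.16 (filterByExpr at a minimum count of 10, TMM factors from 0.971 to 1.03, robust quasi-likelihood test, 2-sided, Benjamini-Hochberg threshold 0.05). The spread of each gene was drawn toward that of all genes (median prior degrees of freedom 209), so that a gene with unusual replicates, such as FOS, keeps more of its own. Standard errors were derived from the fold change and the F statistic. The test was checked on simulated counts. Alternatives were other scalings, no filter, DESeq2 1.42.0, limma-voom (limma 3.58.1), library sizes without the 20 most abundant genes, a replicate block and leaving out each library. The fit without robust estimation was added after the data were seen, as was the TGANNTCA search. The members and lists were chosen with earlier results of these data known, so no list was tested as a set. All 9 members were named, with the 4 genes of smallest p in each of the 6 lists, and others where stated; 1 gene of that rule and 1 marker are not reported here.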

Additional observations from a re-analysis of the deposited data

How the results depend on the processing

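The number of AP-1 members called higher was 5, and 4 to 7 over the alternatives run, with 1 called lower in each. FOSL1, JUNB, JUN, ATF3 and FOSL2 kept their call and direction in all 13 alternatives, and BATF3 passed in none. JUND lost its call in 5. FOS gained one in 3 and FOSB in 6, among them the block on the replicate number for FOSB (log2 fold change 0.47, adjusted p = 3.66e-05). No direction of a member or of the 24 list genes chosen by the naming rule was reversed, and 22 of those 24 kept their call in all alternatives. Of 21 other named genes, run through the same alternatives after the data were seen, 10 kept call and direction in all. With 1 library left out the log2 fold change ran from -0.263 to 0.0338 for EGR1, -0.1245 to 0.0501 for NR4A1 and -0.1015 to 0.0052 for NR4A2, each above 0 without control replicate 2, and from -0.0118 (without anti-MN1 replicate 1) to 0.3017 for SPP1; none was called where its direction was reversed. Over all genes 7942 were called, 5309 by DESeq2 and 5991 to 6685 with 1 library left out. The labels do not say that a replicate number marks a shared culture or day. Deviations of same-numbered libraries from their group means had a correlation of -0.00308. With 2 libraries per group this value cannot show whether same-numbered libraries shared a culture or day. With the replicate block 7879 genes were called, and among the coactivators and turnover genes 1 fell in place of 0. That number was 2 with upper-quartile factors and with library totals only, 1 with the 20 most abundant genes left out of library sizes, and 0 to 1 with 1 library left out. The number of AP-1 targets that fell was 5 with upper-quartile factors and with library totals only, 1 with no low-count filter and with DESeq2, and 1 to 2 with 1 library left out, against 2. The number of other bZIP genes that fell was 7 with upper-quartile factors and 2 to 3 with 1 library left out, against 4. For upstream kinases it was 3 with DESeq2 and 3 to 5 with 1 library left out, against 6. Over all tested genes 28.4% were called lower with upper-quartile factors, against 21.6% in the main fit. Genes called in either direction numbered 7999 with library totals only and 7495 with no low-count filter. With the longest transcript as length, the mean share of FOSL1 in the FOS family was 17.3% in the controls and 27.6% under anti-MN1 sdAb. That of FOSL2 was 31.2% and 22.4%. With no length scaling they were 8.13% and 14.7% for FOSL1, 58.6% and 48.2% for FOSL2, and for JUN in its family 58.6% and 57.4%. The cause of these shifts was not tested, beyond fewer libraries or another length. Fits that leave out 1 library assume that the lone library of a group varies like the others. BATF3, at about 150 counts a library, had the lowest depth of the members.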
